A study of Mus musculus with 3 samples.

Results

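The 55 genes described here are the mouse genes whose symbols begin with Slc22a (25 genes), Slco (14), Slc47a (2), Slc17a (9) or Slc15a (5), out of 27998 genes in the count tables. The rule reads the symbol only, and the families were picked with earlier results of these data known. Single cells were taken from kidneys of 2 Aoah-/- mice (mouse 2 and mouse 3) and 1 wild-type (WT) mouse (mouse 3), labelled as 6 to 8 weeks old, on day 14 of the folic acid (FA) model, in which a large dose of FA injures the tubules. All 3 mice received FA, so no uninjured kidney is part of the comparison. Aoah, which encodes acyloxyacyl hydrolase, was mutated in every cell of the Aoah-/- mice, which were backcrossed to C57BL/6J, and the WT mice came from the same heterozygous breeding. Each mouse gave 1 library of droplet single-cell RNA-seq, in which each captured RNA molecule carries a unique molecular identifier (UMI). With 1 WT library no test across mice was made. Levels are UMIs per 1000000 UMIs (CPM) summed over the cells of a class in a library, given in the order Aoah-/- mouse 2, Aoah-/- mouse 3 and WT. A log2 ratio compares the mean of the 2 Aoah-/- libraries with the WT library, and its SD is that between the 2 Aoah-/- libraries.

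Transport proteins of these families move drugs, toxins, bile acids, urate, hormones, carnitine and small peptides across cell membranes. In the proximal tubule, Slc22a proteins of the organic anion and organic cation type take up solutes from the blood side, Slc47a1 exports cations into the urine in exchange for protons, Slc17a1 and Slc17a3 release urate and other anions, Slc22a12 reabsorbs urate, and Slc15a2 recovers filtered di- and tripeptides. Several of the genes, such as Slco1a1 and Slc22a7, are known to differ between male and female mouse kidneys and between the segments S1, S2 and S3 along the proximal tubule.

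The libraries held 23072 to 25516 barcodes and 158551992 to 167222984 UMIs, and 18202 to 21368 barcodes per library were kept. Xist had 21 to 37 UMIs per library and Ddx3y, a Y-linked gene, 8850 to 9992, so all 3 libraries read as male. Aoah itself, over all barcodes, was at 6.06, 5.68 and 15.3 CPM. The WT library was the highest, but tags at the 3' end can lie outside the mutated part, so the level that remained does not check the genotype. Pairs of libraries shared 171 to 176 barcodes. Of 39 clusters, 27 could be named from markers, and 7530 of 59262 cells stayed unnamed. Proximal tubule epithelial (PTEC)-like cells numbered 8034, 4766 and 9297, with median depths of 3097, 6456 and 4881 UMIs. They expressed the 14 PTEC markers at a summed level of 22743, 22529 and 21980 CPM. The members were kept out of the clustering, so the groups of cells were not drawn by them.

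Of the 55 genes, 23 reached 20 CPM in every library in a nephron class or proximal tubule segment, and 5 more (Slc22a15, Slc15a4, Slco2b1, Slco2a1 and Slc15a3) did so only in another class of cells. Together these 28 are the named transporters. Of the other 27, 18 had under 100 UMIs in all kept cells, among them 3 with no UMI (Slco6c1, Slco6d1 and Slc22a16). Summed over all 55 genes, the level in PTEC-like cells was 4176, 4662 and 4426 CPM, against 613, 847 and 714 CPM in the distal nephron, which pools the intercalated-like cells with those of the ascending limb and the distal convoluted tubule. In PTEC-like cells, Slc22a6 gave 16.0% of the transporter UMIs, Slc22a12 11.4% and Slc22a8 9.03%, as means over the 3 libraries, and these 3 genes with Slc17a1 and Slc47a1 gave 50.3%. Slc22a8 and Slc22a6 are neighbours on chromosome 19 (chr19:8591254-8611835 and chr19:8618039-8628299, GRCm38), Slc22a12 lies on the same chromosome (chr19:6535845-6543032), and Slco1a1 and Slc15a2, described further on, are at chr6:141907282-141946962 and chr16:36750177-36784962. The libraries count tags near the 3' end of transcripts, so isoforms are not told apart.

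Among the 5 nephron classes (PTEC, ascending limb, distal convoluted tubule, principal and intercalated), 26 transporters reached 10 CPM in all libraries in at least 1 class. The highest mean level was in PTEC-like cells for 19 of them, while 21.2% of the 9210 genes tested in the same way were highest there. A gene could enter through the class where it was highest, so some, such as Slc22a7, were counted through their PTEC level only. The other 7 were highest elsewhere. Slco4a1, Slc22a15, Slco2a1 and Slc15a2 were highest in ascending limb-like cells, Slc22a23 in distal convoluted tubule-like cells, Slc22a17, a receptor for lipocalin-2, in principal-like cells, and Slc15a4 in intercalated-like cells. The map of levels by class shows most of the 19 as rows that are bright on the left and paler elsewhere, with the erythroid-like cells the next brightest. The erythroid-like cluster had Kap among its 10 leading genes, as some of the PTEC-like clusters did. The part of PTEC RNA in the erythroid-like levels was not tested.

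**Figure D1:**
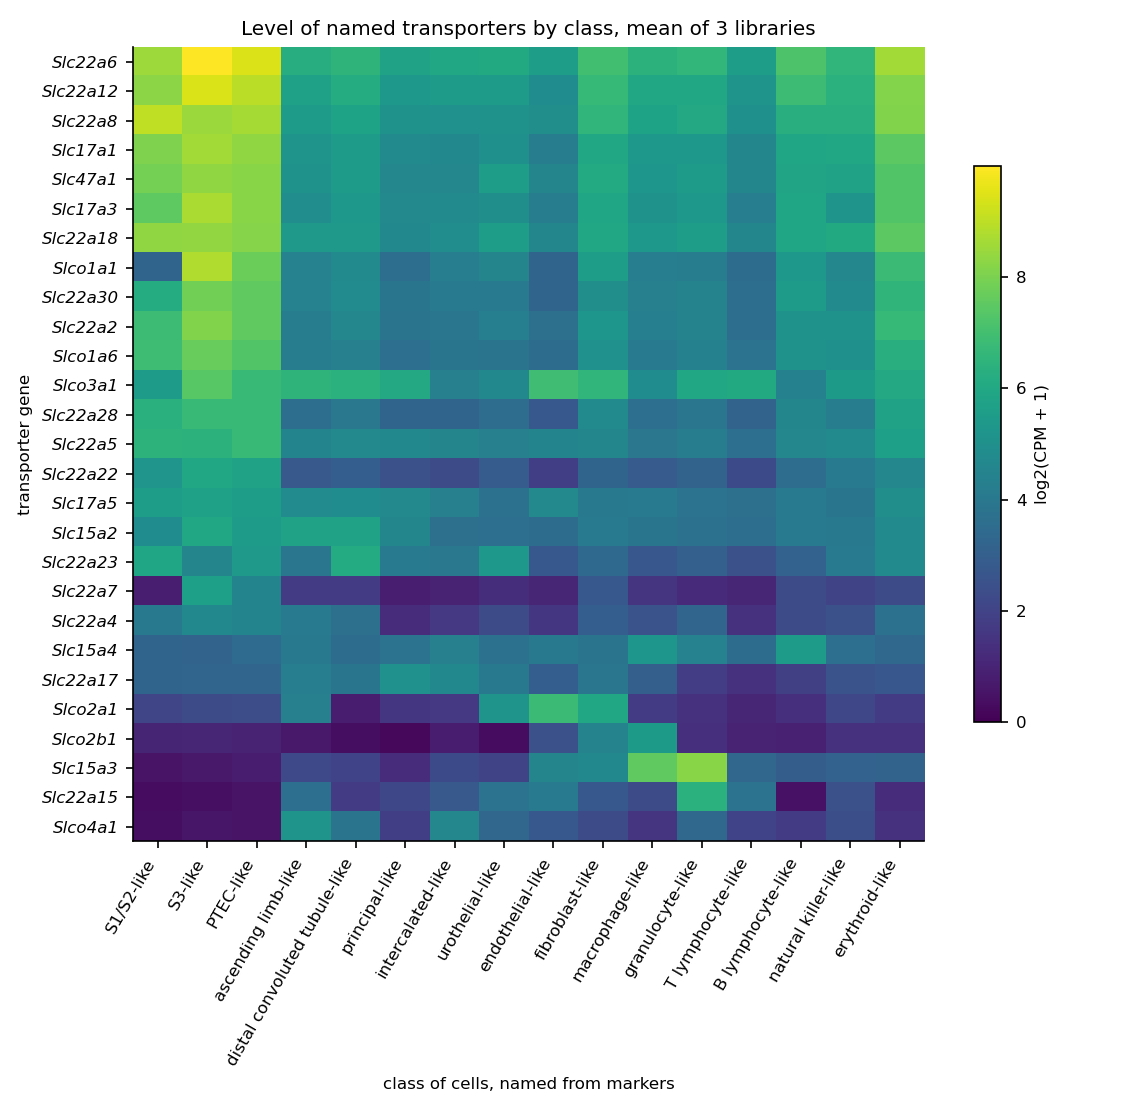
Level of named transporters in each class of cells, as log2(CPM + 1) of the mean over 3 libraries, with the genes ordered by their level in PTEC-like cells. Slc22a6 and Slc22a12 are brightest in S3-like cells, Slc22a8 in S1/S2-like cells, and the lowest rows, from Slc15a4 down to Slco4a1, have their highest levels outside the proximal tubule.

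The organic anion transporters stood highest in PTEC-like cells. Slc22a6, which takes up anionic drugs and metabolites from the blood, was at 666, 744 and 710 CPM, the highest of all members in each library. Slc22a12, the urate reabsorber of the apical membrane, was at 502, 500 and 500 CPM, and the 3 libraries were nearly level. Slc22a8, a second basolateral anion carrier, was at 440, 402 and 351 CPM, higher in both Aoah-/- libraries, with a log2 ratio of 0.26 (SD 0.09, n = 2 and 1). Within S1/S2-like cells, described further on, both Aoah-/- libraries were again above WT, whereas within S3-like cells WT was the highest. The part of the mix of segments in the Slc22a8 difference was not tested. Slc22a7 was at 17.2, 33.5 and 15.2 CPM. Aoah-/- mouse 3 stood apart for Slc22a7, and Aoah-/- mouse 2 was close to WT.

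The organic cation and carnitine carriers were at middle levels. Slc22a2, which brings organic cations in from the blood, was at 164, 203 and 195 CPM. Slc47a1, the apical proton exchanger that completes cation secretion, was at 281, 314 and 286 CPM, whereas its paralog Slc47a2 had 15 UMIs in all kept cells. Slc22a5, the carnitine transporter, was at 112, 92.4 and 114 CPM, and Slc22a4, which carries ergothioneine, at 20.2, 23.2 and 21.3 CPM. For each named gene here the WT value lay within 1.5-fold of both Aoah-/- values. Slc22a18, an orphan carrier, was at 271, 297 and 295 CPM, and Slc22a22, a prostaglandin carrier, at 51.1, 55.4 and 50.3 CPM.

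A pair of rodent members of the chromosome 19 cluster differed more. Slc22a30 was at 140, 189 and 235 CPM, lower in both Aoah-/- libraries, with a log2 ratio of -0.52 (SD 0.30). Slc22a28 was at 86.1, 115 and 123 CPM, again with both Aoah-/- libraries below WT, the one at mouse 3 by a small margin. The functions of both are little known. The 7 markers of the S3 segment, described further on, summed to 2338, 2966 and 3194 CPM in the same PTEC-like cells and so stood in the same order, and their part in these differences was not tested. Within S3-like cells Slc22a30 was at 185, 238 and 278 CPM, again lower in both Aoah-/- libraries, and within S1/S2-like cells it was at 67.5, 79.6 and 68.3 CPM, where WT lay between them. Slco1a6 was lower in both Aoah-/- libraries as well, at 141, 151 and 176 CPM, whereas Slco1a1 (156, 268 and 225 CPM) and Slco3a1 (86.7, 120 and 121 CPM) were lowest in Aoah-/- mouse 2, as the S3 markers were. Within S3-like cells Slco1a1 was higher in both Aoah-/- libraries than in WT, at 406, 565 and 372 CPM, so the order of the libraries was not that of all PTEC-like cells. These Slco genes encode carriers of bile acids, steroid conjugates and prostaglandins.

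The urate and phosphate-related carriers Slc17a1 (307, 345 and 319 CPM) and Slc17a3 (272, 327 and 282 CPM) were highest in Aoah-/- mouse 3, with WT between the Aoah-/- libraries. Slc17a5, the lysosomal sialic acid exporter, was at 49.4, 50.5 and 43.8 CPM. Slc15a2, the peptide carrier, was at 42.0, 53.1 and 40.3 CPM, and Slc15a1, its relative of the gut, had 73 UMIs in all kept cells.

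By a rule of 1.5-fold in the same direction in both Aoah-/- libraries, on CPM with 1 added, none of the 22 transporters with at least 10 CPM in PTEC-like cells was lower and none was higher. Over all 7279 genes tested, 0.797% were lower and 2.05% higher, so 0 among 22 is near the background. Their median log2 ratio was 0.03, with a range from -0.51 to 0.70, beside a median of -0.04 over all genes tested. The summed level of all 55 members had a log2 ratio of -0.00 (SD 0.11). Within the segments described further on, this ratio was 0.20 (SD 0.01) in S1/S2-like cells and 0.09 (SD 0.10) in S3-like cells. S3-like cells, in which the summed level was higher in every library, numbered 1600, 1283 and 3115. The S1/S2-like cells numbered 1703, 1262 and 879, and the part of this mix in the ratio of all PTEC-like cells was not tested. Among the families, in all PTEC-like cells, the log2 ratio of the sum was 0.00 for Slc22a, -0.17 for Slco, 0.05 for Slc47a, 0.07 for Slc17a and 0.21 for Slc15a. These ratios are those of 3 mice and carry no test. The counts of 0 rest on both Aoah-/- libraries, since Slc22a30 alone was lower by the rule with Aoah-/- mouse 3 left out, and Slc22a7 alone was higher with Aoah-/- mouse 2 left out. The plot of PTEC levels shows the 3 libraries close together for most genes.

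**Figure D2:**
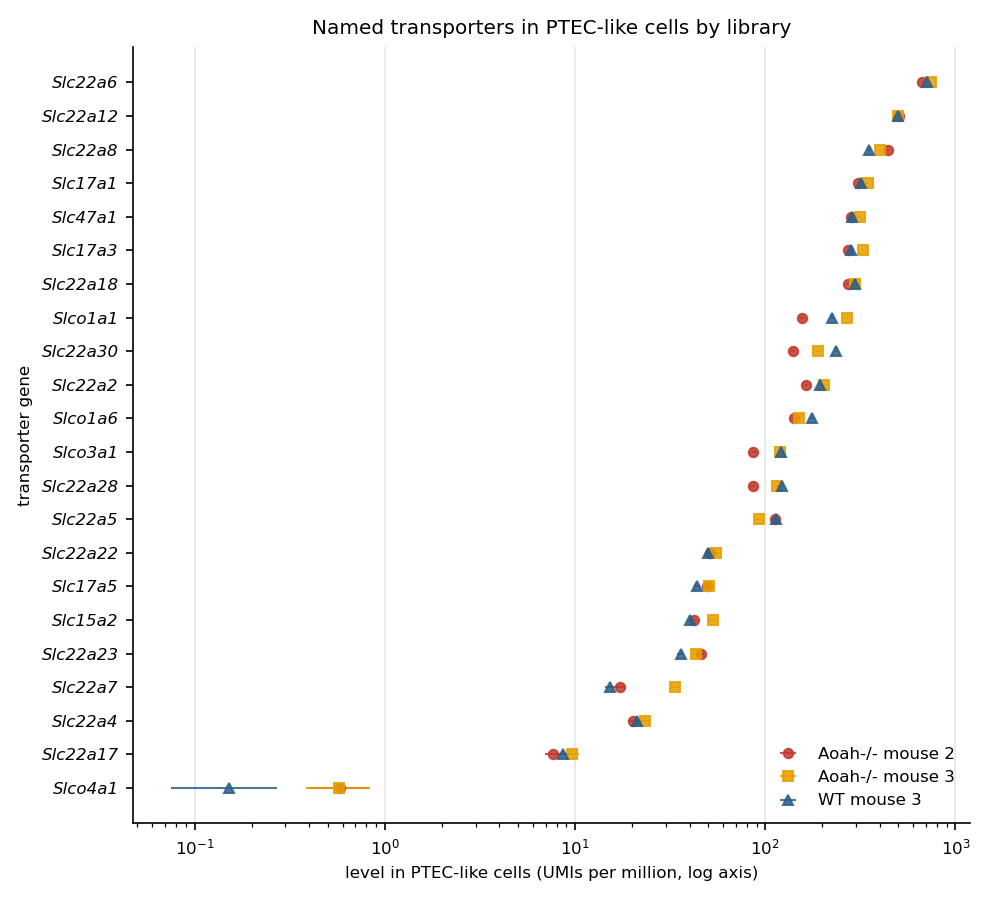
Level in PTEC-like cells of transporters named by a nephron class, in CPM on a log axis, with a point per library and exact Poisson 95% intervals, which cover counting error only. The 3 points of a gene mostly overlap, Slc22a7 has Aoah-/- mouse 3 to the right, Slc22a30 has WT to the right, and Slco4a1 is under 1 CPM in every library.

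Segments were named from markers of their own, and the comparison of segments is a description with no test. Of the PTEC-like cells, 3844 were S1/S2-like (1703, 1262 and 879 per library) and the S3-like cells numbered 1600, 1283 and 3115. The other subclusters, with most of the PTEC-like cells, stayed unnamed. An unnamed subcluster of 4284 cells held cells of both kinds, since 33.3% of its cells had 3 or more UMIs of the S3 marker Slc7a13, 53.8% had 3 or more of the early-segment markers Slc5a2 and Slc5a12, and 2.73% had both. The S3-like subclusters were not uniform either. In that of 2439 cells, 62.2% had 3 or more UMIs of Slc7a13 and 17.0% had 3 or more of the early markers, and in the larger one these shares were 28.8% and 0.485%. The S1/S2-like cells carried Slc5a2 at 695 CPM and Slc7a13 at 16.7 CPM. The larger S3-like subcluster carried Slc5a2 at 15.8 CPM and Slc7a13 at 552 CPM. Slc1a1, also an S3 marker, was level, at 122 CPM there and 123 CPM in S1/S2-like cells. Cyp7b1 was low in both, at 1.78 and 0.164 CPM. Slc34a1, an S1/S2 marker, was at 3222 CPM there against 4397 CPM. The other S3 markers were higher, and the other S1/S2 markers lower, in the larger S3-like subcluster. The part of S2 cells in it was not tested. The largest unnamed subcluster, of 5130 cells (2599, 242 and 2289 per library), was shallow, at a median of 0.239 of its libraries' median depth. The library with 242 of these cells, Aoah-/- mouse 3, held no barcode under 1672 UMIs. The cells of this subcluster count in the PTEC-like levels, and its part in them was not tested.

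Some transporters differed in level between the segments. Of 22 members tested, 9 were higher in S3-like than in S1/S2-like cells by 2-fold in every library, whereas 2.96% of 6982 genes were, and 1, Slc22a23, was higher in S1/S2-like cells, against 3.05% of genes. The 9 were Slco1a1, Slc22a7, Slc22a19, Slco3a1, Slc22a30, Slc22a6, Slc22a2, Slc17a3 and Slc22a12. Of these, Slco1a1, Slc22a7 and Slc22a19 were under 10 CPM in S1/S2-like cells and were tested only through their S3-like level. Slco1a1 and Slc22a7 stood on the S3 side in all 15 ways of setting the cells and segments that were run. Slc22a19 and Slco3a1 did so in 11, Slc22a6 in 10, Slc22a2 in 9, Slc22a30 in 8, and Slc17a3 and Slc22a12 in 6. The count of 9 fell to 3 when only cells with at least 500 genes were kept, when all libraries were given the same lowest UMI total, when the members were allowed into the clustering, or when the mixed subcluster was counted as S1/S2-like, and to 2 when the 10% of cells with the highest doublet scores were left out.

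Slco1a1, a carrier of steroid and bile acid conjugates, was at 406, 565 and 372 CPM in S3-like cells and at 8.79, 7.86 and 8.41 CPM in S1/S2-like cells. The segments did not overlap in any library, with log2 ratios of 5.38, 6.00 and 5.31, a mean of 47.2-fold, on CPM with 1 added. After each cell was thinned to 1000 UMIs, 23.4%, 33.4% and 22.1% of S3-like cells held an Slco1a1 UMI, against 1.12%, 1.27% and 0.354% of S1/S2-like cells and 0.891%, 4.78% and 1.85% of distal cells, which should lack the gene. The S1/S2-like share was below the distal share in Aoah-/- mouse 3 and WT. In Aoah-/- mouse 2 its exact 95% interval of 0.667% to 1.77% overlapped the distal interval of 0.553% to 1.36%. The source of the S1/S2-like UMIs was not tested. Before thinning, the S3-like shares were 51.6%, 67.7% and 49.3% and the distal shares 4.48%, 12.8% and 6.29%, at median depths of 3669.5, 6093 and 5486 UMIs and of 8062.5, 3827 and 7891 UMIs. Thinning left out 128, 0 and 217 of the S3-like cells as too shallow.

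Slc22a7, a carrier of cyclic nucleotides and organic anions, was at 46.3, 74.6 and 26.2 CPM in S3-like cells and under 1 CPM in S1/S2-like cells of every library, 25.5-fold apart on average with 1 added. It lies at chr17:46432183-46438457. Slc22a19, an organic anion carrier of the same chromosome 19 cluster, which is below the level for named genes and is shown for its segment difference, was at 12.2, 14.1 and 6.43 CPM against 0.270, 0.330 and 0.112 CPM. Slco3a1 was at 144, 187 and 164 CPM against 44.1, 50.8 and 36.7 CPM, 3.71-fold apart, and Slc22a30 at 185, 238 and 278 CPM against 67.5, 79.6 and 68.3 CPM. Slc22a6 was at 1019, 1083 and 940 CPM in S3-like cells against 417, 406 and 266 CPM, 2.84-fold apart.

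Slc22a8 leaned the other way without passing the 2-fold rule, at 365, 332 and 369 CPM in S3-like cells and 580, 532 and 467 CPM in S1/S2-like cells. It was the highest member in S1/S2-like cells, with 16.1% of the transporter UMIs there, ahead of Slc22a6. Slc22a23, a member without a settled substrate, was at 23.7, 19.6 and 23.1 CPM in S3-like cells against 51.4 CPM in WT and up to 60.9 CPM in the Aoah-/- libraries, 2.53-fold higher in S1/S2-like cells on average. Slc22a5 (log2 ratio -0.07), Slc22a18 (0.05) and Slc17a5 (0.12) differed little between the segments. In the plot of segment ratios, these lie around 0.

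**Figure D3:**
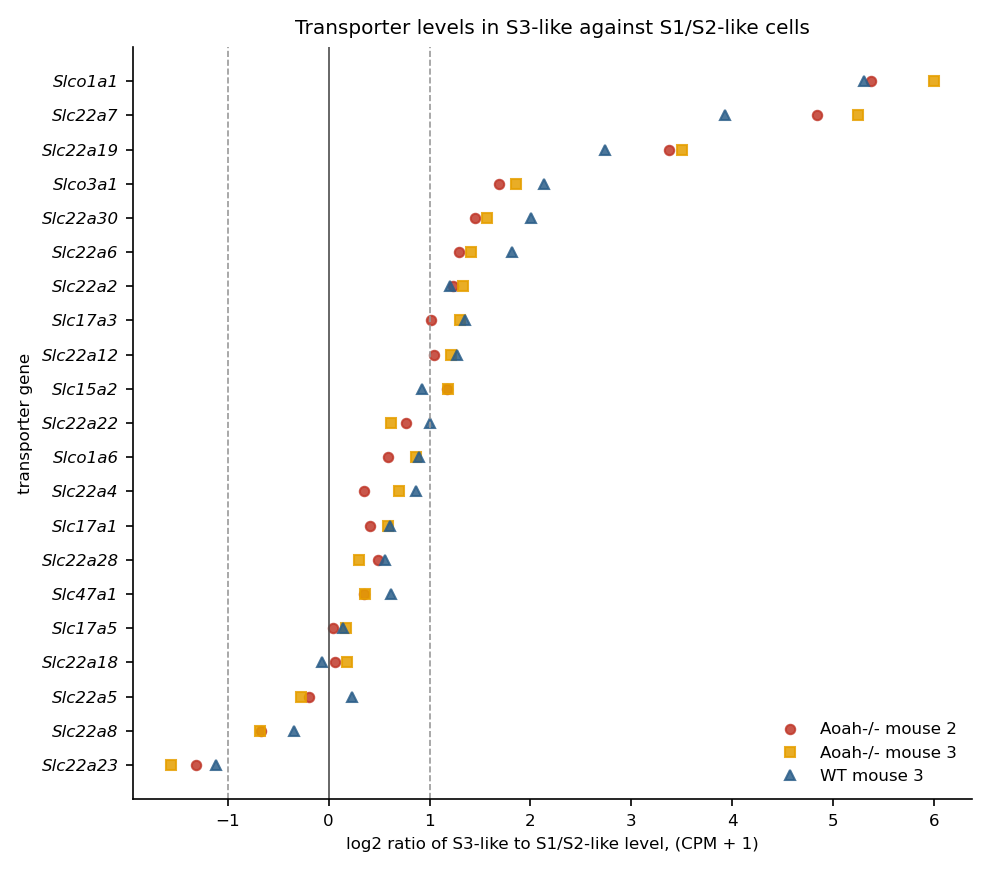
Log2 ratio of the level in S3-like cells to that in S1/S2-like cells, on CPM with 1 added, for the transporters shown, with a point per library. Dashed lines mark 2-fold either way. Slco1a1, Slc22a7 and Slc22a19 lie far to the right in all 3 libraries, and Slc22a23 alone lies left of the lower line.

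The windows upstream of the start site are shown for the members with the largest segment differences for which RefSeq (GRCm38.p6) gave one, Slco1a1 and Slc22a19 on the S3 side and Slc22a23 on the other. Each is 250 bases, read 5' to 3'.
Slco1a1, chr6:141946963-141947212, minus strand: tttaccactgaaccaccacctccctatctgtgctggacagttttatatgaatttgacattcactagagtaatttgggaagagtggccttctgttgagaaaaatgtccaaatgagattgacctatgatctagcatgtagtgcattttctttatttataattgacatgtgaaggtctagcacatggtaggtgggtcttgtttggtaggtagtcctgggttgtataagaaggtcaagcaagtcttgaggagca
Slc22a19, chr19:7711311-7711560, minus strand: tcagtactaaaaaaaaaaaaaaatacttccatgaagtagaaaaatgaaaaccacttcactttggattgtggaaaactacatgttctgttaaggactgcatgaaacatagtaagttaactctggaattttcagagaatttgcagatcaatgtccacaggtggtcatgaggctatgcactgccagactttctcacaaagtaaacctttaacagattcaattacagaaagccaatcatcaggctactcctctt
Slc22a23, chr13:34345219-34345468, minus strand: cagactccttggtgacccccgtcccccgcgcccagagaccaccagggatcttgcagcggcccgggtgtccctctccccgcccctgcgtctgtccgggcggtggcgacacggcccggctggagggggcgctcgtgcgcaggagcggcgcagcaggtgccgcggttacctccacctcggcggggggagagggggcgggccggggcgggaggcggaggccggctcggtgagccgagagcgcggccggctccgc

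Within the segments, few transporters differed between the genotypes by the 1.5-fold rule. In S1/S2-like cells 1 of 19 members was higher in both Aoah-/- libraries (1.68% of 6778 genes were) and 0 were lower (0.428% of genes). The member was Slc22a6, at 417 and 406 CPM in the Aoah-/- libraries and 266 CPM in WT (log2 ratio 0.63). Slc5a8, a marker of the S3 segment and no member, moved with it in the same cells, at 36.7, 34.1 and 18.4 CPM, while the summed level of the 7 S3 markers was 839, 920 and 823 CPM, nearly the same in the 3 libraries. The part of S3 cells in this difference was not tested. Over all PTEC-like cells, by contrast, the Slc22a6 levels were 666, 744 and 710 CPM.

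In S3-like cells 2 of 22 members were higher in both Aoah-/- libraries (1.09% of 6875 genes were) and 0 were lower (2.27% of genes). They were Slc22a7, at 46.3 and 74.6 CPM against 26.2 CPM in WT, and Slc22a19, at 12.2 and 14.1 CPM against 6.43 CPM. In WT, Slc22a19 was below the level for testing. It was tested only through its Aoah-/- mean, so its place among the tested members depended on its being higher there. Slc15a2, at 65.9 and 73.2 CPM against 46.7 CPM, was just short of the rule in Aoah-/- mouse 2. Both Aoah-/- libraries were above WT for each gene, and the range between the Aoah-/- libraries was wide for Slc22a7 and narrow for Slc22a19. In the unnamed cluster led by Ccl2, described further on, WT was instead the highest library for Slc22a7 and Slc22a19. The part of the placing of cells in these calls was not tested. The S3-like cells were not made up alike, since the subcluster of 2439 cells, which was led by Gm26917 and Slc7a13, gave 504 of 1600, 507 of 1283 and 1428 of 3115, and the part of this in the calls was not tested. Slc13a2 and Slc5a8 were the partner genes called higher in S1/S2-like cells, and no partner gene was called in S3-like cells. The median log2 ratio of the members was 0.23 in S1/S2-like cells, beside 0.03 over all genes, and 0.10 in S3-like cells, beside -0.07.

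A small S3-like subcluster of 56 cells (11, 15 and 30 per library) held a set of transporters at higher levels than the S3-like cells as a whole. Its leading gene was Cyp7b1, an S3 marker, at 529 CPM against 1.78 CPM in the larger S3-like subcluster, and although the members took no part in the clustering, Slc22a19, Slc22a7 and Slc22a13 were among its 10 leading genes. Slc22a7 was at 344, 503 and 260 CPM there, Slc22a13, a carrier of urate and nicotinate, at 158, 179 and 127 CPM, and Slc22a19 at 139, 212 and 227 CPM. Slc22a13 and Slco4c1 are below the level for named genes and were picked after their values were seen. Slco4c1, a carrier of cardiac glycosides and thyroid hormone on the blood side, was at 37.2, 33.2 and 40.0 CPM, and over all PTEC-like cells at under 1 CPM in each library.

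The same 56 cells held little Slc22a8, at 27.9, 0 and 10.0 CPM, with 0 of 240614 UMIs in Aoah-/- mouse 3. Slc15a2 was at 121, 154 and 207 CPM, above its level in S3-like cells as a whole (65.9, 73.2 and 46.7 CPM) in every library. Slc22a6 was at 297, 391 and 113 CPM, below its S3-like level in every library. With 107652 to 300077 UMIs in these cells per library, the counting intervals are wide and only large differences can be read.

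A cluster of 642 cells (172, 347 and 123) was led by Ccl2, C3 and Vcam1 and stayed unnamed because its PTEC markers were weak. The 14 markers summed to 5654, 5976 and 6607 CPM there, and none of them was at 0. Its levels of the anion carriers were low. Slc22a6 was at 56.8, 74.7 and 69.6 CPM, in the range of the distal cells (55.3, 88.5 and 79.4 CPM). Slc22a8 was at 31.9, 40.5 and 11.6 CPM, below the distal cells (38.5, 55.9 and 36.7 CPM) in every library. Slc47a1 was well above its distal levels, at 106, 142 and 150 CPM. Slco2a1, the prostaglandin transporter, was at 59.3, 52.4 and 37.6 CPM, while PTEC-like cells had 4.52, 5.19 and 2.80 CPM.

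The WT cells of that cluster differed from the Aoah-/- cells in the set that marked the Cyp7b1-led subcluster. Slc22a13 was at 4.56, 1.74 and 69.1 CPM, Slc22a19 at 2.03, 2.03 and 49.2 CPM, Slc22a7 at 0.507, 2.03 and 35.9 CPM, and Slco4c1 at 2.03, 2.03 and 27.6 CPM. For all 4 genes the WT library was above both Aoah-/- libraries by more than the gap between these, on 65 UMIs for Slc22a7 and 125 for Slc22a13 in 123 cells. The urate carriers Slc22a12 (47.7, 65.4 and 184 CPM) and Slc17a1 (63.9, 67.1 and 156 CPM) were also highest in WT. The 7 S3 markers moved with them, at 1157, 988 and 3793 CPM in sum, and their cells' part in the difference was not tested. These genes were picked after their values had been seen, and the cluster's 123 WT cells come from 1 mouse. Summed over all members, the cluster stood at 1015, 1098 and 1761 CPM.

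**Figure D4:**
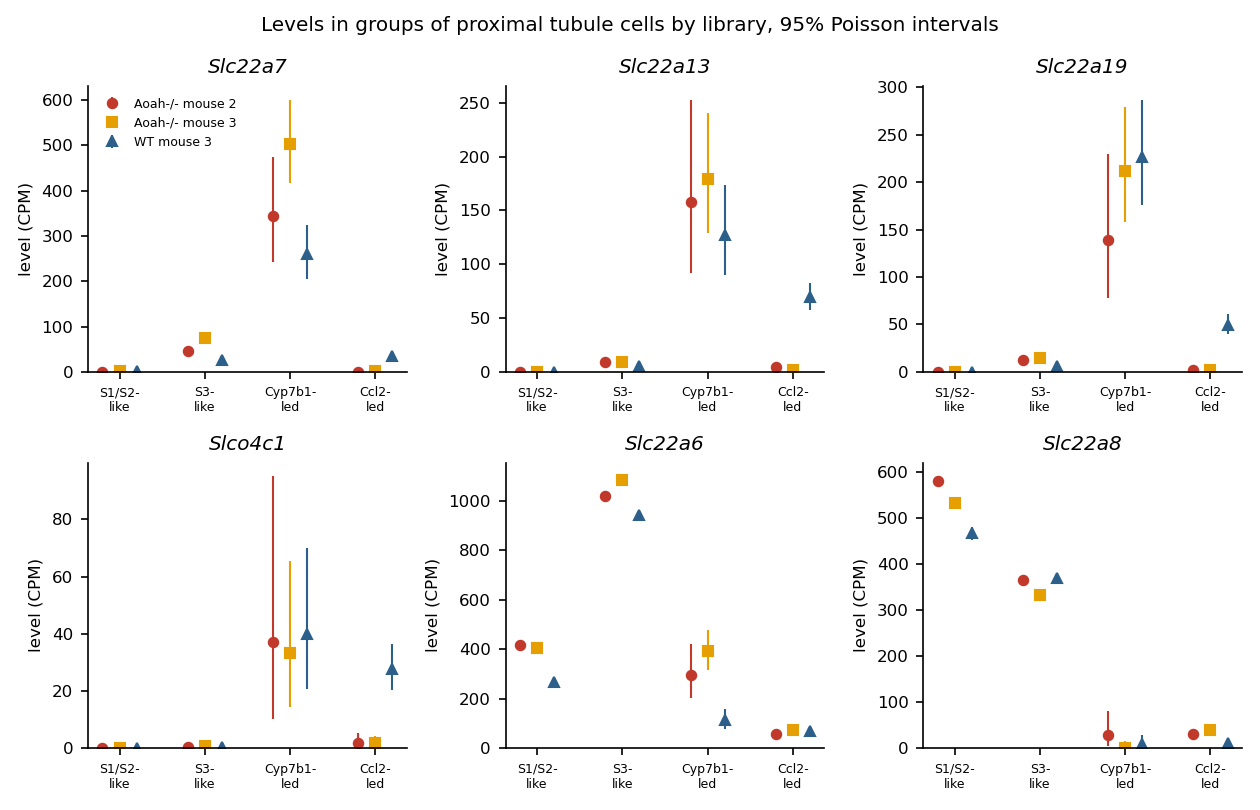
Levels of 6 transporters in S1/S2-like cells, S3-like cells, the Cyp7b1-led subcluster of 56 S3-like cells and the unnamed cluster of 642 cells led by Ccl2, C3 and Vcam1, in CPM per library with exact Poisson 95% intervals. Slc22a7, Slc22a13, Slc22a19 and Slco4c1 peak in the Cyp7b1-led subcluster in all 3 libraries, and in the Ccl2-led cluster they are above 20 CPM in WT only.

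In distal cells, many transporters stood at about the same share of their PTEC level as the PTEC markers did. The 14 PTEC markers, which distal cells should lack, stood in distal cells between 6.69% and 9.03% of their PTEC level in the library of Aoah-/- mouse 2, between 10.4% and 14.7% for Aoah-/- mouse 3, and between 7.08% and 11.7% for WT. Of 23 transporters, 11 lay within or below these ranges in every library, among them Slc22a6 (8.31%, 11.9% and 11.2%), Slc22a12 and Slco1a1. The source of their distal UMIs, such as free RNA or doublets, was not tested. Slc22a18 was above the range in all 3 libraries, and Slc22a28, Slc22a30 and Slc47a1 in some, by a small margin.

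The other 8 were far above in every library. Slco4a1, a carrier of thyroid hormone, was the clearest, at 40.7, 31.4 and 31.7 CPM in ascending limb-like cells and 0.583, 0.576 and 0.151 CPM in PTEC-like cells. Slc22a17 was at 27.8, 25.5 and 44.0 CPM in principal-like cells and 7.64, 9.61 and 8.67 CPM in PTEC-like cells. Slc22a23 was at 67.8, 70.9 and 72.0 CPM in distal convoluted tubule-like cells. Slco3a1, Slc17a5, Slc22a5, Slc22a4 and Slc15a2 had distal levels between 20.4% and 106% of the PTEC level, above the range of the markers.

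The ascending limb-like cells fell into a cluster led by Slc12a1 and Umod and a cluster led by Lcn2 and Clu, genes that rise in injured tubules. Slco2a1 was at 33.7, 33.6 and 30.7 CPM in the Lcn2-led cluster and at 4.66, 4.33 and 8.92 CPM in the Slc12a1-led cluster. Slc22a15 was at 18.5, 14.1 and 16.2 CPM against 5.21, 7.34 and 6.69 CPM. Slc22a4 went the other way, at 9.24, 10.7 and 9.42 CPM against 24.6, 21.4 and 20.1 CPM, and so did Slc15a2, at 40.3, 54.9 and 25.4 CPM against 67.8, 78.0 and 55.1 CPM. The clusters differed in the same direction in all 3 libraries for each of these 4 genes, which were picked after their values had been seen.

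Slc15a2 was the member with the most classes in which both Aoah-/- libraries lay on the same side of WT in a single direction. It was higher in both Aoah-/- libraries than in WT in 12 of 14 classes, whereas 2.39% of 9025 genes were so placed and 0.465% were lower in as many. Since 24 members were tested and Slc15a2 alone reached this, the share of members is close to that of all genes. In ascending limb-like cells it was at 55.7, 66.3 and 37.5 CPM, in principal-like cells at 22.4, 38.7 and 7.70 CPM, and in T lymphocyte-like cells at 11.7, 18.8 and 2.85 CPM. In granulocyte-like cells it was at 20.6 and 16.7 CPM in the Aoah-/- libraries, with 0 of 485834 UMIs in WT, which by the exact interval allows up to 7.59 CPM. The count of 12 classes goes by direction alone, and in some of them the counting intervals overlapped. In fibroblast-like cells Aoah-/- mouse 2 had 3 UMIs, at 7.68 CPM with an interval of 1.58 to 22.4 CPM, and WT was at 4.17 CPM.

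The classes without this order were natural killer- and erythroid-like cells, where the WT level lay between those of the Aoah-/- libraries (9.68 and 25.0 CPM in natural killer-like cells, and 20.6 and 37.8 CPM in erythroid-like cells). The natural killer-like class includes a cluster of 291 cells (77, 103 and 111) led by Hist1h1b, Mki67 and Top2a. Gzma was the only natural killer marker among the leading genes of that cluster. In PTEC-like cells the difference was small (42.0, 53.1 and 40.3 CPM). The 8 markers of ascending limb-like cells, which also carry Slc15a2, moved with it in endothelial-like cells, at 232, 419 and 98.1 CPM, where Slc15a2 was at 11.3, 19.2 and 1.52 CPM. The part of ascending limb RNA in the Slc15a2 difference was not tested. The 14 PTEC markers, at 1713, 1679 and 1413 CPM in the endothelial-like cells, moved less. Slc22a12 had no such order, with both Aoah-/- libraries above WT in 5 of 14 classes. Slc22a8 was above WT in both in 10 classes and below in 0, and Slc22a30 was below WT in both in 10 and above in 0. The share of all genes so placed in 10 classes was not taken. In endothelial-like cells Slc22a8 stood at 9.47%, 6.82% and 5.85% of its PTEC level, and Slc22a30 at 5.95%, 3.72% and 4.21%. The PTEC marker Lrp2 stood at 8.74%, 8.80% and 6.21% there. The part of PTEC RNA in these counts of classes was not tested.

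**Figure D5:**
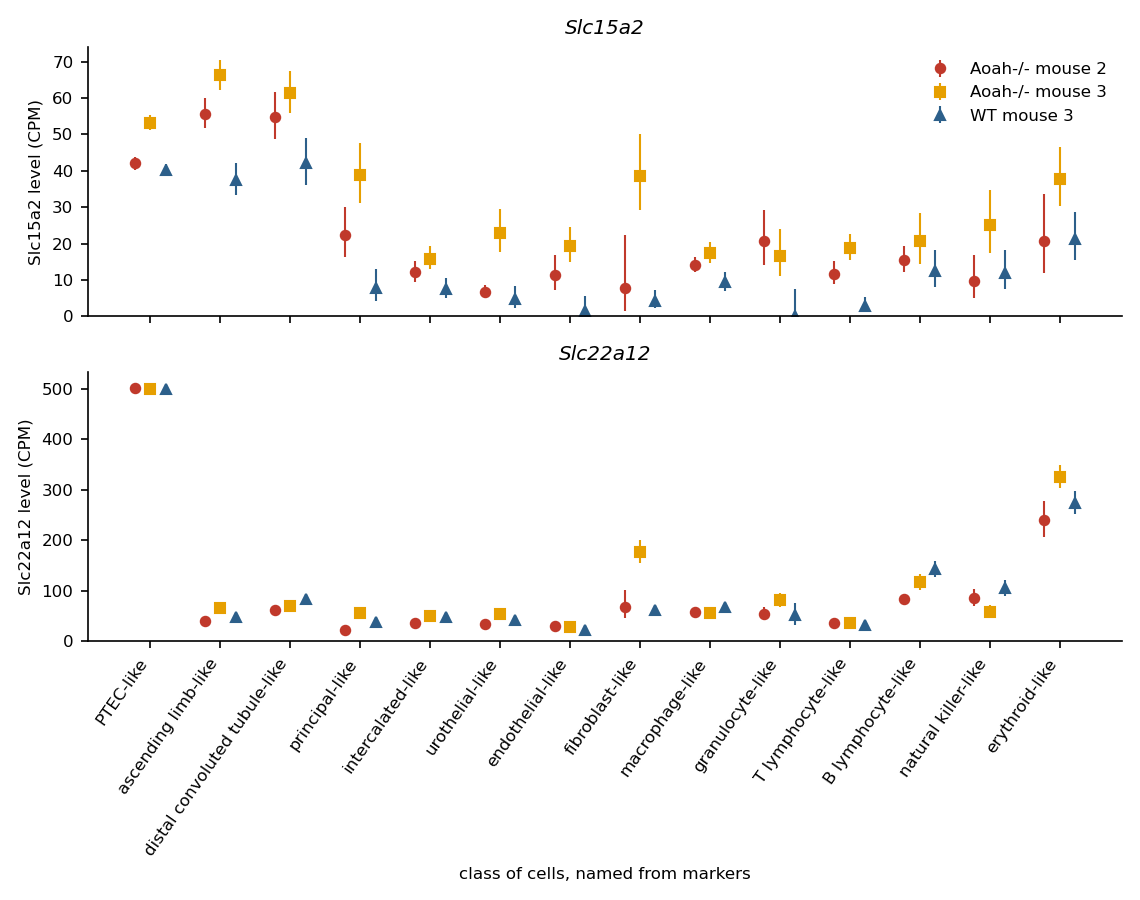
Levels of Slc15a2 (top) and Slc22a12 (bottom) in 14 classes of cells, in CPM per library with exact Poisson 95% intervals. For Slc15a2 the WT point is the lowest of the 3 in all classes but natural killer- and erythroid-like cells, whereas for Slc22a12 the order of the libraries changes from class to class.

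Outside the nephron, 5 members marked other cells. Slc15a3, which moves histidine and bacterial peptides out of lysosomes, was at 284, 301 and 305 CPM in granulocyte-like cells and at 111, 251 and 195 CPM in macrophage-like cells, and under 1 CPM in PTEC-like cells. Slc15a4, of like function, was at 35.4, 40.6 and 36.3 CPM in macrophage-like and 44.5, 46.9 and 43.0 CPM in B lymphocyte-like cells. Slc22a15 was at 81.1, 73.1 and 90.6 CPM in granulocyte-like cells.

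By the mean over libraries, Slco2a1 was highest in endothelial-like cells, at 167, 81.7 and 82.9 CPM, and Slco2b1 in macrophage-like cells, at 23.5, 60.9 and 44.5 CPM. Slco2a1 was also at 108, 58.9 and 17.0 CPM in fibroblast-like cells and at 35.2, 31.9 and 39.0 CPM in urothelial-like cells. In Aoah-/- mouse 2 the fibroblast-like cells had Slco2b1 at 25.6 CPM, slightly above the macrophage-like cells. The macrophage-like levels of Slc15a3 and Slco2b1 were lowest in Aoah-/- mouse 2, where 1408 of 3102 macrophage-like cells belonged to a cluster led by Saa3 and Fn1 that had 20 cells in Aoah-/- mouse 3 and 78 in WT. Its part in these levels was not tested.

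Other genes that serve the same solutes were not called between the genotypes in PTEC-like cells. Of the 10 ABC efflux pumps, 4 were tested in PTEC-like cells and none was called. Abcg2, the apical urate and drug pump, was at 395, 429 and 403 CPM, and Abcc2 at 223, 214 and 220 CPM. Of 8 genes for urate, dicarboxylate and scaffold proteins, 7 were tested and none was called, among them Pdzk1, the scaffold that holds Slc22a12 at the membrane, at 463, 485 and 474 CPM. Of 8 transcription factor genes, 6 were tested and none was called, with Hnf4a, a main regulator of these transporters, at 214, 215 and 246 CPM. The median log2 ratios of the 3 lists were 0.11, -0.00 and 0.03.

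Of 11 injury genes, 4 were tested in the same cells and 1 was called. It was Spp1, which encodes osteopontin, higher in both Aoah-/- libraries at 1006, 880 and 326 CPM. The log2 ratios of the 4 ran from 0.23 to 1.53, with a median of 0.30. The other injury genes were below the level for testing, so these values do not cover them. None of the 11 was lower in either Aoah-/- library than in WT over all PTEC-like cells, though some had few UMIs. Sox9 was at 4.78, 4.69 and 1.12 CPM, Vcam1 at 7.84, 7.49 and 2.44 CPM, and Lcn2 at 3.17, 4.57 and 1.26 CPM. Summed over the 11, the level was 1161, 1037 and 447 CPM, most of it from Spp1. Within S1/S2-like cells Spp1 was at 1849, 1713 and 1179 CPM, and Vcam1, at 7.98, 7.66 and 8.18 CPM, was highest in WT. Within S3-like cells Spp1 was at 318, 322 and 95.5 CPM. Distal cells held the 11 genes at a summed 10411, 10914 and 12246 CPM. The parts of the mix of segments and of distal RNA in the PTEC differences were not tested. In all PTEC-like cells, the 4 of 5 sex-linked genes tested were not called. In S3-like cells Spp1 was again the injury gene called, and 0 of 3 efflux pumps, 0 of 7 partner genes, 0 of 6 factor genes and 0 of 4 sex-linked genes were. In S1/S2-like cells no efflux pump, factor, injury or sex-linked gene was called.

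Some members cannot be told apart with certainty. The last 383 bases of the Slc22a21 transcript match Slc22a5 at 99.7% identity, so UMIs of these genes may be divided between them or lost, and Slc22a5 values are to be read with Slc22a21 (832 UMIs) in mind. The 3' ends of Slc22a27, Slc22a28 and Slc22a29 match at 81.9% to 94.7% identity. Slc22a13 and Slc22a14 overlap on the same strand of chromosome 9. Slc22a14 had 30 UMIs, 29 of them in WT.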

How the data were processed

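Kidney cells of 3 mice were profiled by droplet single-cell RNA-seq, 1 library per mouse. The authors deposited raw UMI counts per gene and barcode. The submitters' processing notes name Cell Ranger 3.1.0, STAR, Seurat 4.2.0 and mm10, whereas the file header names Cell Ranger 6.1.2. A barcode was kept with 200 or more genes and a mitochondrial share of up to 50% (scanpy 1.11.5, Python 3.11.15), and 16.3% to 21.1% per library were left out. Cells were clustered without the members, on 2000 variable genes and 50 components, at resolution 1, and clusters were named from marker lists. Scrublet called 544, 0 and 201 doublets, and since it marked none in 1 library its calls were not used, so doublets were not removed. The rule for naming segments was set after values had been seen.

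Counts were summed per library and class and divided by the class's total UMIs. Intervals are exact Poisson or exact binomial 95% intervals and cover counting error only. With 2 Aoah-/- libraries and 1 WT library no test across mice was made. A gene was tested at 10 CPM or more in WT or the Aoah-/- mean and called at 1.5-fold in both Aoah-/- libraries, and between segments at 2-fold in all 3 libraries, with 1 CPM added. Genes were named at 20 CPM in every library of a class. Shares of cells were taken after thinning to 1000 UMIs. The members and lists were chosen with earlier results of these data known. Positions are from GENCODE for GRCm38, matched by gene identifier for 55 of 55 members, and promoters from RefSeq for 46. Alternatives changed the filters, the clustering, the denominator, the segments and the libraries used. Some genes and a promoter motif search are not reported here, and the figures leave those genes out.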

Additional observations from a re-analysis of the deposited data

Results flagged for a closer look

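The barcodes left out by the filters, which enter no comparison, also held transporter UMIs. Summed over the 55 genes, the level there was 853 CPM in Aoah-/- mouse 2 and 793 CPM in Aoah-/- mouse 3, both above the 758 CPM of WT mouse 3. They were noted because they are a signal in unused data above the WT library, and the difference was not tested.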

How the results depend on the processing

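No paired analysis was possible, since there was 1 WT library and the labels state no pairing of the mice. The number of members higher in S3-like than in S1/S2-like cells was 9, and it was 3 with at least 500 genes per cell, 3 with the same lowest UMI total in every library, 3 with members used for clustering, 2 with the 10% of cells of highest Scrublet score left out and, in an alternative chosen after seeing the data, 3 with the mixed subcluster counted as S1/S2-like. The number higher in S1/S2-like cells was 1, and it was 2 without mitochondrial UMIs in the denominator, 0 with the mean over cells of each cell's CPM and 2 with each cell's segment taken from its own marker UMIs, the last also chosen after seeing the data. The number of members higher in both Aoah-/- libraries in PTEC-like cells was 0 and became 1 with the distal level subtracted. With 1 Aoah-/- library left out, it ranged from 0 to 1, and the number lower likewise from 0 to 1. The cause was not tested. For the 20 transporters followed under 12 alternatives, 207 of 239 log2 ratios moved by less than the spread between the Aoah-/- libraries, 32 moved by more, and 33, in 9 members, had the other sign than the value reported. None of these members was called in PTEC-like cells, so no call could reverse. Slc22a23 went from 0.31 to 1.57 with the distal level subtracted. Slc15a2 gave no ratio with the distal level subtracted, since its distal level exceeded that in PTEC-like cells of both Aoah-/- libraries. With any 1 library left out, 19 members were highest in PTEC-like cells, 8 to 10 were higher in S3-like and 1 was higher in S1/S2-like cells. Values of the Cyp7b1-led subcluster are limited by its number of cells, 56 in all.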
